A study of Homo sapiens with 15 samples.

Results

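Tissue kallikreins are secreted serine proteases, and the Kazal-type inhibitors SPINK5 and SPINK6 hold several of them in check. The 10 genes described here were KLK5, KLK6, KLK7, KLK8, KLK9, KLK10, KLK11, KLK13, SPINK5 and SPINK6. They were represented by 14 of the 42405 non-control probes on the array, chosen because the accession attached to the probe belongs to 1 of these genes in RefSeq. Probes on the array named 19483 genes in all by the same match.

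The cells were PE/CA-PJ41, an established line from a human oral squamous cell carcinoma, and all groups were kept for 24 h in supplemented medium before RNA extraction. The CYGB+ group carried a stably integrated pCMV6-Neo plasmid with the human cytoglobin cDNA, was selected in G418 and, by the study's methods, was 1 clone. The NCE group was the control without the cytoglobin cDNA, and its labels gave an empty transfection vector whereas parts of the study call it untransfected. Each group had 3 biological replicates, from RNA extracted on separate occasions, with 3 arrays for each NCE replicate and 2 arrays for each CYGB+ replicate, 15 arrays in all. The comparison addressed which transcripts differ in cells that carry cytoglobin. Because CYGB+ was a single clone, an effect of cytoglobin and a property of that clone cannot be told apart, and p-values measured the spread between RNA extractions.

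In epidermis and oral mucosa the kallikreins act as a cascade in which trypsin-like members such as KLK5 activate other members. Active KLK5 and KLK7 cleave the desmosomal proteins that hold surface cells together, and KLK5 can also signal through the protease-activated receptor encoded by F2RL1. SPINK5 encodes LEKTI, whose loss in Netherton syndrome leaves epidermal kallikreins uninhibited. The kallikrein genes lie side by side on chromosome 19 and the SPINK genes considered here on chromosome 5.

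The arrays were spread unevenly over 2 slides, each with its own scan. Slide 1 held 8 NCE arrays, and slide 2 held array repeat 3 of NCE replicate 1 together with all 6 CYGB+ arrays. Between 48% and 57.2% of probes were well above background on an array, by the scanner software's own call. One array in each group stood apart from the others of its group. Array repeat 1 of CYGB+ replicate 1 had a mean correlation of 0.928 with the rest of its group, against 0.969 to 0.976 for the other CYGB+ arrays. Array repeat 2 of NCE replicate 3 had 0.969, against 0.98 to 0.988 for the other NCE arrays. Counts and the member differences are given with and without this pair.

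CYGB itself was examined first as a check of the labels. On the 9 NCE arrays the normalised log2 signal of its probe A_33_P3285868 was 11.25 at the lowest, 12.02 at the median and 12.36 at the highest, and on the 6 CYGB+ arrays it was 11.29, 11.94 and 12.50. The groups overlapped over most of their range. The mean was 11.99 ± 0.15 (SD, n = 3) in NCE and 11.92 ± 0.53 (SD, n = 3) in CYGB+, a difference of -0.07 (SE 0.25, limma adjusted p = 0.879). The sign turned in 4 of 21 alternative settings. This probe therefore did not tell the labelled groups apart. It was well above background on all 9 NCE and all 6 CYGB+ arrays, whereas the study describes the parent line as not expressing cytoglobin. The NCE signal of this probe is at odds with that description, and the cause was not tested. Where the probe lies relative to the introduced cDNA is not given in the sources used here. The study's methods give Cy5 (red) for control RNA and Cy3 (green) for cytoglobin RNA, whereas the labels give Cy3 for every sample. If the methods hold, green signal on the NCE arrays would not be from NCE RNA, which would affect every comparison below. Every level, detection call and direction below rests on the labels. The groups are the arrays labelled NCE and the arrays labelled CYGB+.

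Squamous epithelial markers matched the labelled cell type. All 10 (KRT5, KRT14, KRT6A, KRT16, KRT17, TP63, SFN, DSG3, DSP and CDH1) were well above background on every array. Their mean normalised log2 signal was 11.25, 11.26 and 11.11 in NCE replicates 1, 2 and 3 and 11.16, 11.47 and 11.14 in CYGB+ replicates 1, 2 and 3. KRT6A, a keratin of activated keratinocytes, was lower in CYGB+ by -0.51 (SE 0.10, adjusted p = 0.0264), and this difference was absent on slide 2 (0.0060), where it rests on 1 NCE array. The call was also lost with the processed signal (-0.44, adjusted p = 0.131, after quantile normalisation and -0.27, adjusted p = 0.333, at the 75th percentile scaling), without the offset (adjusted p = 0.0606) and with a median shift (adjusted p = 0.166). KRT14 differed by 0.72 (SE 0.22) without passing the threshold, adjusted p = 0.0817.

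Markers of other cell types were mostly at background. Of the fibroblast markers, COL3A1, LUM and PDGFRB were well above background on no array. Over the 6 fibroblast genes the mean was 6.41, 6.32 and 6.34 in the NCE replicates and 6.16, 6.17 and 6.10 in the CYGB+ replicates. Their brightest gene, COL1A2, fell from 7.85 ± 0.08 to 6.52 ± 0.13 (SD, n = 3 each; limma adjusted p = 0.00337), with a difference of -1.53 with slide as a fixed term and -1.55 within slide 2. COL1A1, the other fibroblast gene tested, differed by 0.10 in the opposite direction (limma adjusted p = 0.710), so the lower mean of this list was not shared by its tested genes. Among endothelial, leukocyte, melanocyte and salivary gland markers, CDH5, CD68, PMEL, DCT and AQP5 were tested and none passed the threshold. Of these, CD68, PMEL and AQP5 were well above background on all 9 NCE and all 6 CYGB+ arrays. CD68 was the brightest, with means of 8.77 in NCE and 8.98 in CYGB+. In contrast, VWF, MLANA, TYR, STATH and MUC7 were well above background on no array on the brightest probe of each gene. LYZ and PRB1 had no probe. Whether any of these markers bears on the kallikrein signals was not tested.

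Detection divided the family. KLK5, KLK7 and KLK8 were well above background on all 9 NCE and all 6 CYGB+ arrays, as was the brighter of the 2 KLK6 probes. KLK9 was well above background on 4 NCE and 5 CYGB+ arrays. KLK10, KLK11, KLK13, SPINK5 and SPINK6 did not reach the requirement of being well above background on at least 50% of the arrays of a group. Thus 5 of the 10 genes, through 6 of the 14 probes, entered the test, as did 22823 of all 42405 probes.

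**Figure D1:**
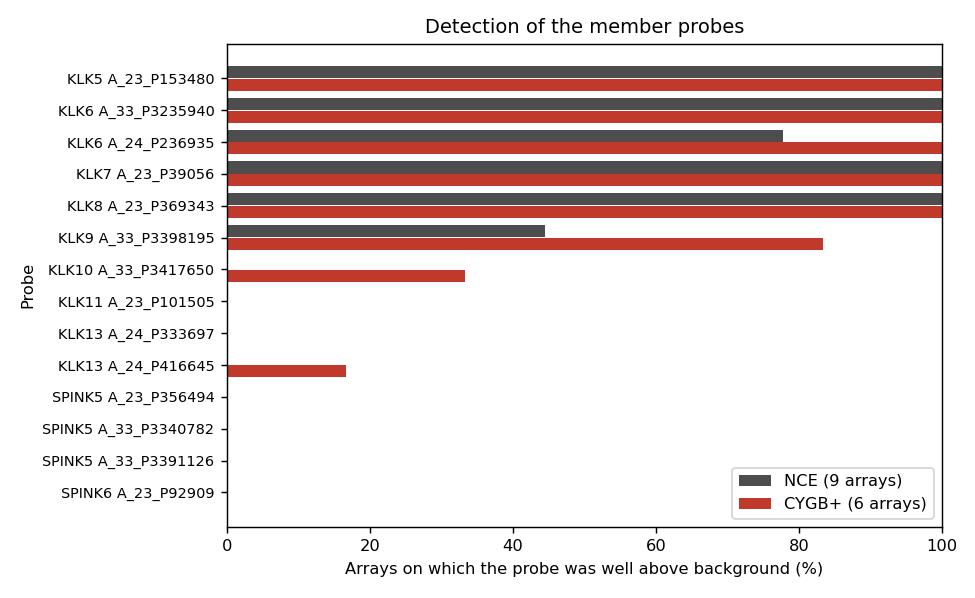
Percentage of arrays on which each of the 14 member probes was well above background, for the 9 NCE arrays (grey bars) and the 6 CYGB+ arrays (red bars). KLK5, KLK7, KLK8 and 1 KLK6 probe reach 100% in both groups, while the probes for KLK11, SPINK5 and SPINK6 show no bar.

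No member gene passed the threshold. Of the 5 genes tested, 0 had a limma adjusted p under 0.05 (Benjamini-Hochberg over all probes), against 10.6% of the 22823 probes tested, with 1184 (5.19%) higher and 1238 (5.42%) lower in CYGB+. At an unadjusted p under 0.05 the count was 1, KLK5, against 27.4% of all probes, and the methods' t-test gave 0 at either threshold, where it called 589 of the 22823 probes after adjustment and 5504 before. Without the pair of arrays that stood apart, 0 of the 5 genes and 4367 of 22623 probes were called. The differences were then 1.02 for KLK5 (adjusted p = 0.0563), 0.36 and 0.24 for the KLK6 probes, -0.12 for KLK7, -0.08 for KLK8 and 0.19 for KLK9. The fit with slide as a fixed term took the 15 arrays as units, with a correlation of 0.185 estimated between arrays of a replicate. In that fit 0 of 4 member genes and 764 of 22396 probes were called, against 4877 in the fit of the same form without slide. Within slide 2, where 1 NCE array faced the 3 CYGB+ replicates, 0 of 5 genes and 4 of 23184 probes were called. In that last comparison the lone array is assumed to vary like the CYGB+ group. Group and slide cannot be told apart for most of the values below.

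KLK5, the trypsin-like protease that starts the epidermal cascade, showed the largest difference among the members in the fit as reported. Its normalised log2 signal, from probe A_23_P153480, was 11.71, 10.53 and 10.67 in NCE replicates 1, 2 and 3. In CYGB+ replicates 1, 2 and 3 it was 11.93, 12.22 and 11.59. All CYGB+ replicates were above NCE replicates 2 and 3, but NCE replicate 1 exceeded CYGB+ replicate 3, so the groups overlapped. The mean was 10.97 ± 0.64 (SD, n = 3) in NCE and 11.91 ± 0.31 (SD, n = 3) in CYGB+. The difference was 0.94 (SE 0.32, 95% confidence interval 0.19 to 1.70), a 1.92-fold ratio, and did not pass after adjustment (limma unadjusted p = 0.0207, adjusted p = 0.109). For KLK5 too, each CYGB+ replicate was above its same-numbered NCE replicate. With the replicate numbers as a block the SE was 0.27 and the limma adjusted p was 0.0755.

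Whether KLK5 passed depended on NCE replicate 1 and, within it, on 1 spot, and also on the unit of the fit. The probe is printed as a pair of spots, and on array repeat 1 of NCE replicate 1 their raw green signals were 14439 and 2622.5, with no outlier flag from the scanner software. On array repeats 2 and 3 of the same replicate the normalised log2 signal was 11.34 and 11.36, against 12.42 on array repeat 1. When spots more than 4 times as bright as the dimmest spot of their probe were left out, an alternative chosen after seeing the data, NCE replicate 1 came to 11.31 and the groups no longer overlapped, as was the case for 33.4% of all probes tested in the values as reported. The difference was then 1.07 (SE 0.24, limma adjusted p = 0.0343). Without NCE replicate 1 altogether it was 1.31 (SE 0.19, adjusted p = 0.0273), and with the single arrays as units it was 0.94 with adjusted p = 0.0325, a fit that has more units than biological replicates and rests on an estimated correlation of 0.181 between arrays of a replicate. Leaving out any other single replicate gave no pass. The difference was 0.72 without NCE replicate 2 (limma adjusted p = 0.311) and 0.79 without NCE replicate 3 (0.289). It was 0.94, 0.79 and 1.11 without CYGB+ replicates 1, 2 and 3 (limma adjusted p = 0.179, 0.227 and 0.115). Over all 21 alternatives the KLK5 difference ranged from 0.55 to 1.31 and the adjusted p from 0.0273 to 0.616, and 3 alternatives passed the threshold.

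On slide 1 the KLK5 signal differed between NCE replicates. The 6 arrays of NCE replicates 2 and 3 had normalised log2 values between 10.30 and 10.85, while the slide 1 arrays of NCE replicate 1 read 12.42 (11.24 without the bright spot) and 11.34. On slide 2 the NCE array stood at 11.36 and the CYGB+ arrays ran from 11.27 to 12.33, so that 1 of 6 CYGB+ arrays lay below the NCE array. The difference was 0.84 (SE 0.56, limma adjusted p = 0.616) with slide as a fixed term and 0.55 (SE 0.27, adjusted p = 0.567) within slide 2. The slide 2 NCE array belongs to NCE replicate 1 and read close to array repeat 2 of that replicate on slide 1. Slide and group cannot be told apart for KLK5. In raw green signal the 6 CYGB+ arrays spanned 3084.25 to 4631.5 and the NCE array on slide 2 read 2932.5.

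**Figure D2:**
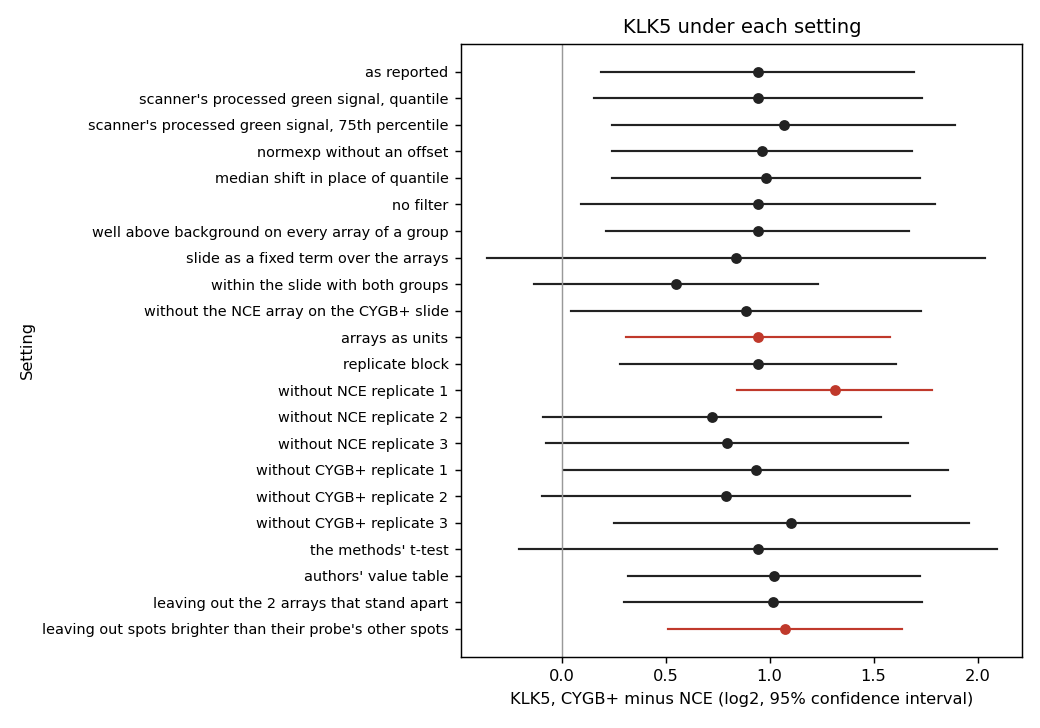
KLK5 difference, CYGB+ minus NCE on the log2 scale, with its 95% confidence interval under the reported fit and each of 21 alternatives, with red marking adjusted p under 0.05. All estimates lie above 0, from 0.55 to 1.31, and 3 alternatives are red.

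KLK6, a trypsin-like kallikrein also called neurosin, varied by replicate more than by group. Probe A_33_P3235940 read 8.36, 7.36 and 7.77 in NCE replicates 1, 2 and 3 and 8.58, 7.89 and 8.09 in CYGB+ replicates 1, 2 and 3. Replicate 1 was the highest and replicate 2 the lowest in both groups, and the groups overlapped. The difference was 0.36 (SE 0.28, 95% confidence interval -0.30 to 1.01, limma adjusted p = 0.453). On leaving out single replicates it ranged from 0.12 to 0.62. The sign turned with slide in the fit, to -0.24 (SE 0.32, adjusted p = 0.875), and within slide 2, to -0.40 (SE 0.29, adjusted p = 0.717), where the NCE array comes from replicate 1, the highest in both groups, and at 8.58 was as high as the CYGB+ replicate 1 arrays at 8.62 and 8.54. Each CYGB+ replicate was above the NCE replicate of the same number. With the replicate numbers as a block the difference stayed 0.36 with SE 0.10 and adjusted p = 0.0790.

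The other KLK6 probe, A_24_P236935, gave a signal nearer to background and was well above it on 7 of 9 NCE and 6 of 6 CYGB+ arrays. It read 6.43, 6.15 and 6.32 in NCE replicates 1, 2 and 3 and 6.53, 6.51 and 6.46 in CYGB+ replicates 1, 2 and 3. Here the groups did not overlap, as was the case for 33.4% of all probes tested. The difference was 0.20 (SE 0.10, limma adjusted p = 0.244). With slide as a fixed term it was 0.16 and within slide 2 it was 0.11. It was 0.54 without the offset of the background correction (adjusted p = 0.149). With the scanner's processed signal it was 0.95 after quantile normalisation (adjusted p = 0.158), where KLK5 differed by 0.94. After scaling that signal to the 75th percentile it was 0.88 (adjusted p = 0.165). Its size differed between these settings, and the cause was not tested. Neither KLK6 probe passed the threshold in any of these settings.

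KLK8, or neuropsin, gave similar values in both groups. It read 9.94, 9.73 and 9.85 in NCE replicates 1, 2 and 3 and 9.70, 9.66 and 9.84 in CYGB+ replicates 1, 2 and 3. The groups overlapped, and the difference of -0.10 (SE 0.10, limma adjusted p = 0.545) had a 95% confidence interval from -0.33 to 0.13. With slide as a fixed term it was -0.10 and within slide 2 it was -0.14, and under scaling of the processed signal to the 75th percentile it was 0.047. On leaving out single replicates it ranged from -0.16 to -0.052.

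KLK7, the chymotrypsin-like enzyme of the stratum corneum, read 6.76, 6.56 and 6.76 in NCE replicates 1, 2 and 3. In CYGB+ replicates 1, 2 and 3 it read 6.80, 6.53 and 6.60. The groups overlapped and the difference was -0.05 (SE 0.11, 95% confidence interval -0.31 to 0.22, limma adjusted p = 0.830). CYGB+ replicate 1 rested on discordant arrays, at 7.14 and 6.47, and the brighter of them was the CYGB+ array that stood apart. With slide as a fixed term the difference was -0.30 (SE 0.21, adjusted p = 0.658) and within slide 2 it was -0.30 (SE 0.19, adjusted p = 0.658).

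**Figure D3:**
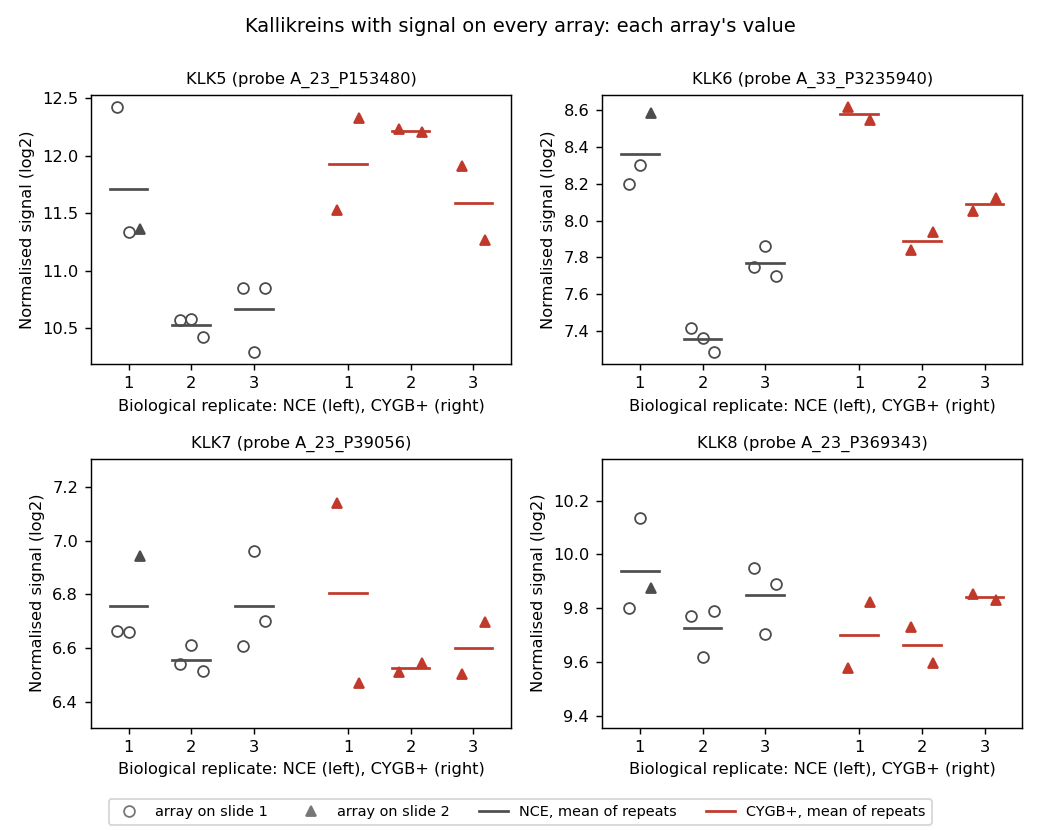
Normalised log2 signal of KLK5, KLK6, KLK7 and KLK8 on each of the 15 arrays, by biological replicate, with NCE in grey and CYGB+ in red, open circles for slide 1, triangles for slide 2 and bars for the mean of the array repeats. KLK5 array repeat 1 of NCE replicate 1 lies at 12.42, above the other NCE arrays, and KLK6 is highest in replicate 1 of both groups.

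KLK9, a kallikrein whose substrates are less well described, was near background. Its arrays ran from 6.16 to 6.43 in NCE, with a median of 6.32, and from 6.03 to 7.05 in CYGB+, with a median of 6.42. Array repeat 1 of NCE replicate 2 had no value because its spot was marked as an outlier by the scanner software. That spot had a raw green signal of 231, the highest of all arrays for KLK9. The highest array, repeat 2 of CYGB+ replicate 3, had a raw green signal of 126 against 28 to 57 on the other 5 CYGB+ arrays. KLK9 passed the filter through the CYGB+ group alone, which is also the group with the higher mean, so its test carries no weight. The difference was 0.13, and without CYGB+ replicate 3 it was -0.0073.

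**Figure D4:**
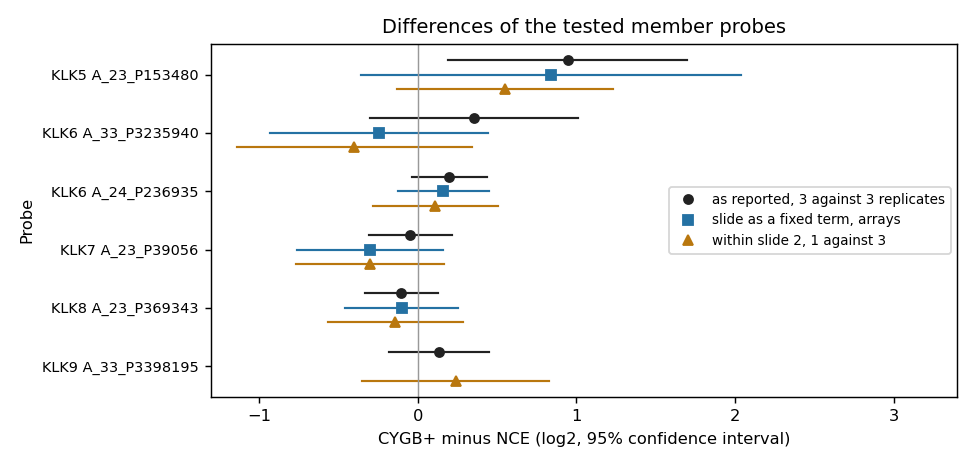
CYGB+ minus NCE difference on the log2 scale with 95% confidence intervals for the 6 tested member probes, as reported (circles), with slide as a fixed term (squares) and within slide 2 (triangles). KLK9 was not in the fit with slide as a fixed term. KLK5 lies to the right of 0 in each, at 0.94, 0.84 and 0.55, while the brighter KLK6 probe moves from 0.36 to -0.24 and -0.40.

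KLK10, KLK11 and KLK13, which are secreted kallikreins of normal stratified epithelia among other tissues, carried little or no signal. KLK10 was well above background on 0 NCE and 2 CYGB+ arrays, with array values from 5.995 to 6.24 and from 6.03 to 6.30. The groups overlapped, and the highest value came from the CYGB+ array that stood apart. KLK11, with 10 spots for its probe, was not well above background on any array and ranged from 5.99 to 6.14 over all arrays. Of the KLK13 probes, A_24_P333697 was not well above background on any array, and A_24_P416645 was on 1 CYGB+ array.

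The inhibitors were not measured above background either. The 3 SPINK5 probes ranged from 5.76 to 6.07 over all arrays and the SPINK6 probe from 5.85 to 6.10, and none was well above background on any of the 15 arrays. No fold is given for these genes, since both groups were at background. Thus the kallikreins with signal were measured in cells in which the transcripts of LEKTI and SPINK6 were not detectable by these probes.

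Of the other tissue kallikreins, KLK1, KLK2 and KLK4 of 7 genes were tested and 1 passed, against 10.6% of all probes tested. KLK1, the kininogen-cleaving tissue kallikrein, read 6.48 ± 0.05 (SD, n = 3) in NCE and 6.94 ± 0.08 (SD, n = 3) in CYGB+. The groups did not overlap, as was the case for 33.4% of all probes tested. The difference was 0.46 (SE 0.09, limma adjusted p = 0.0225), or 1.38-fold. It was 0.35 (SE 0.12, adjusted p = 0.145) with slide as a fixed term and 0.37 (SE 0.17, adjusted p = 0.523) within slide 2. It was 0.89 (adjusted p = 0.0112) without the offset, 1.14 (adjusted p = 0.0113) with the processed signal after quantile normalisation and 1.08 (adjusted p = 0.0145) at the 75th percentile scaling, and with a median shift in place of quantile normalisation it was 0.44 and did not pass (adjusted p = 0.0780). KLK2 and KLK4 differed by 0.0052 and -0.04, and KLK3, KLK12, KLK14 and KLK15 were not tested. KLK2 was well above background on 2 NCE and 3 CYGB+ arrays. It passed the filter through CYGB+ alone, the group with the higher mean, so its test carries no weight. Of 8 other Kazal inhibitors only SPINK7 was tested, with 8.22 ± 0.13 (SD, n = 3) in NCE and 7.92 ± 0.27 (SD, n = 3) in CYGB+ and a limma adjusted p of 0.249. SPINK4 and SPINK8 were each well above background on 1 NCE array only, at 16.10 and 15.63, where each probe has a single spot.

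Among 12 other inhibitors of epithelial serine proteases, 8 were tested, 2 were higher in CYGB+ and 1 was lower, against 10.6% of all probes tested in either direction, with a median difference of 0.16. SERPINA3, the acute-phase inhibitor alpha-1-antichymotrypsin, rose from 7.65 ± 0.15 to 8.58 ± 0.11 (SD, n = 3 each; limma adjusted p = 0.00666), and its other 2 probes rose as well, by 1.25 and 0.78. With slide as a fixed term it was 1.52 higher (SE 0.36, adjusted p = 0.0294), and within slide 2 it was 1.52 higher (SE 0.17, adjusted p = 0.178). PI3, which encodes the elastase inhibitor elafin, rose by 0.43 (SE 0.10, adjusted p = 0.0395), and this was not past the threshold with the replicate numbers as a block (adjusted p = 0.0608) or with slide as a fixed term (0.54, adjusted p = 0.0621), with 0.56 (adjusted p = 0.385) within slide 2. PI3 was 0.81 (adjusted p = 0.0226) without the offset, 1.14 (adjusted p = 0.0180) with the processed signal after quantile normalisation and 1.10 (adjusted p = 0.0171) at the 75th percentile scaling. It did not pass with a median shift (0.41, adjusted p = 0.118), in the methods' t-test (adjusted p = 0.0891) or in any of the 6 fits that left out a replicate (limma adjusted p = 0.0535 to 0.129). SERPINA1, alpha-1-antitrypsin, fell from 8.52 ± 0.12 to 7.89 ± 0.25 (SD, n = 3 each; limma adjusted p = 0.0357), and was -0.57 (adjusted p = 0.224) with slide as a fixed term and -0.63 (adjusted p = 0.438) within slide 2. The SERPINA1 call was also lost in the methods' t-test (adjusted p = 0.125) and without a filter (limma adjusted p = 0.0653). It passed in 1 of the 6 fits that left out a replicate (limma adjusted p = 0.0230 to 0.125). SLPI, SPINT1, SPINT2, SERPINB6 and PEBP1 did not pass.

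Of 11 other proteases of this network 7 were tested, 0 were higher and 1 was lower in CYGB+, against 10.6% of all probes tested in either direction, with a median difference of -0.18. PLAT, tissue plasminogen activator, fell from 9.55 ± 0.45 to 8.31 ± 0.24 (SD, n = 3 each; limma adjusted p = 0.0213). It was -1.15 (SE 0.34, adjusted p = 0.0926) with slide as a fixed term and -1.02 (SE 0.23, adjusted p = 0.257) within slide 2. PLAT did not pass in the methods' t-test (adjusted p = 0.112) or without a filter (limma adjusted p = 0.0503). It also did not pass without NCE replicate 2 (limma adjusted p = 0.0707) or without CYGB+ replicate 2 (limma adjusted p = 0.0553). PRSS8, or prostasin, and PRSS22 had differences of -0.47 and -0.69 with adjusted p = 0.0556 and 0.0615.

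Of 12 substrates and receptors 7 were tested, 0 were higher and 1 was lower, against 10.6% of all probes tested in either direction, with a median difference of -0.20. The corneodesmosomal targets DSG1, DSC1 and CDSN, and FLG and CAMP, were not tested because of low signal. APP, the amyloid precursor protein, fell from 13.15 ± 0.17 to 12.60 ± 0.07 on its brighter probe (SD, n = 3 each; limma adjusted p = 0.0266), while its other probe differed by -0.55 with adjusted p = 0.242. For the brighter probe the value was -0.41 (adjusted p = 0.215) with slide as a fixed term and -0.34 (adjusted p = 0.550) within slide 2, and it did not pass without the offset (adjusted p = 0.0550), at the 75th percentile scaling (adjusted p = 0.111), with a median shift (adjusted p = 0.230), in the methods' t-test (adjusted p = 0.0860) or in the deposited table (adjusted p = 0.160). F2RL1, the receptor that KLK5 can activate, read 9.55 ± 0.26 in NCE and 9.94 ± 0.14 in CYGB+ (SD, n = 3 each; adjusted p = 0.140).

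**Figure D5:**
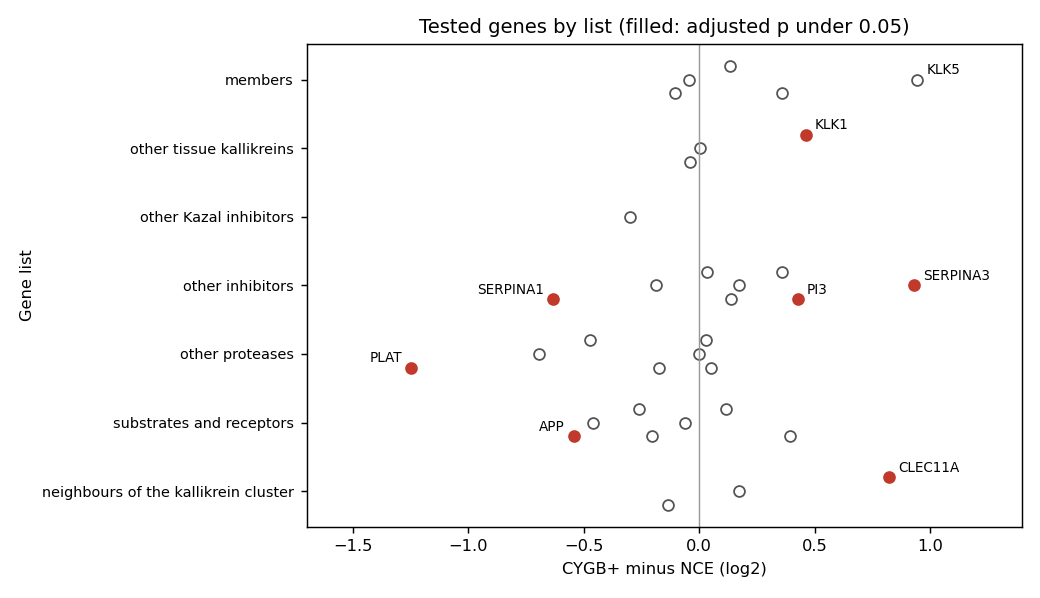
CYGB+ minus NCE difference on the log2 scale of each tested gene, by list, for the members and the lists of related and neighbouring genes without the cell type markers, with filled red points for adjusted p under 0.05. KLK5 at 0.94 is open, and the filled points are KLK1, SERPINA3, PI3, SERPINA1, PLAT, APP and CLEC11A.

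Few genes that flank the kallikrein cluster could be tested. Of the 5 nearest protein-coding genes on each side by the reference annotation, 9 had a probe and 3 were tested. Of those tested 1 passed, against 10.6% of all probes tested in either direction. CLEC11A, a secreted growth factor gene on the KLK1 side, rose from 7.45 ± 0.10 to 8.27 ± 0.13 (SD, n = 3 each; limma adjusted p = 0.00763), and was 0.73 higher (SE 0.14, adjusted p = 0.00937) with slide as a fixed term and 0.69 higher (SE 0.18, adjusted p = 0.297) within slide 2. ACP4 on the same side differed by -0.14 and CTU1 on the KLK14 side by 0.17 on its brighter probe (adjusted p = 0.310) and 0.51 on its other probe (adjusted p = 0.0951), none past the threshold.

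Some calls among the listed genes were lost when a replicate was left out, which also leaves fewer samples in the fit. Counting KRT6A and COL1A2, 9 genes of the lists passed as reported, as did 2422 of all 22823 probes tested. Of the 9 genes, 6 passed without NCE replicate 1, 3 without NCE replicate 2 and 4 without NCE replicate 3. Without CYGB+ replicates 1, 2 and 3 the counts were 7, 6 and 5. Over all probes the counts without NCE replicates 1, 2 and 3 were 1164 of 23059, 492 of 23178 and 523 of 22785. Without CYGB+ replicates 1, 2 and 3 they were 2392 of 23443, 1705 of 23340 and 1211 of 22584. All 9 kept their direction in each of these fits, with differences of 0.42 to 0.50 for KLK1, 0.35 to 0.48 for PI3, -0.77 to -0.54 for SERPINA1, -1.42 to -0.99 for PLAT, -0.64 to -0.49 for APP and -0.59 to -0.46 for KRT6A. SERPINA3, COL1A2 and CLEC11A passed in all 6. With the processed signal 8 of the 9 passed after quantile normalisation and 7 at the 75th percentile scaling, and 7 passed without the offset and 7 without a filter. With a median shift 3 passed, SERPINA3 (adjusted p = 0.0633) and PLAT (adjusted p = 0.111) not among them, and with the methods' t-test 4 passed. In the deposited table, which holds 4 of these probes, 2 passed. With slide as a fixed term 3 passed, and within slide 2 none did, with 2504 of 23184 probes at an unadjusted p under 0.05 in that limma fit. All 9 passed without the pair of arrays that stood apart.

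The promoters of KLK5 and KLK6 are shown because these members had the largest differences in the fit as reported. KLK6 also had the same order of replicate numbers in both groups. The RefSeq windows (GRCh38.p14) matched 9 of the 10 genes with 15 windows, KLK8 having none. Each run is the 250 bases before the gene's start, 5′ to 3′ on the minus strand, chr19:50953039-50953288 for KLK5 and chr19:50969592-50969841 for KLK6. Capitals mark matches on either strand to any of 5 motifs, and matches did not overlap in these windows.
KLK5: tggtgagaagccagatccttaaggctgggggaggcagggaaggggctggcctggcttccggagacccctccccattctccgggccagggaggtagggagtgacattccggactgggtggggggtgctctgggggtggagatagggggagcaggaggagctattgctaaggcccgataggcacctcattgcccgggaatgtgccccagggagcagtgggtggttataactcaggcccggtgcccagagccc
KLK6: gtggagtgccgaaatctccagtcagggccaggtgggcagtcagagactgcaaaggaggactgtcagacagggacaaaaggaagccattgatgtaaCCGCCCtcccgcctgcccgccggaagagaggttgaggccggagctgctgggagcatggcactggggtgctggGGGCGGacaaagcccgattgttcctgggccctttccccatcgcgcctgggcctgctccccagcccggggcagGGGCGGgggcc
The KLK5 window held no match to any of the 5 motifs and 64.8% of its bases were G or C. The KLK6 window held 3 GC boxes and was 66.8% G or C. The GC box, GGGCGG, occurred in 8 of the 15 member windows, from 5 members, and in 42.6% of all 35116 windows of this length. The antioxidant response element core, TGACNNNGC, was in 3 of the 15 member windows and in 10.9% of all windows. These 3 windows belong to KLK7 and KLK13, and the KLK7 matches are the same bases in overlapping windows. The AP-1 site, TGANTCA, was in no member window and in 6.6% of all. Among the members only SPINK5 had the TATA box, TATAAA, which was in 3763 of all windows. Only SPINK5 had the steroid receptor half-site, AGAACA, which was in 12.4% of all windows. A match describes letters in the window and is not evidence of a binding site.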

How the data were processed

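Labelled cRNA from 3 biological replicates of each group was hybridised to 15 Agilent SurePrint G3 arrays, and the members and gene lists were chosen with earlier results of these data known. Per the file headers, Feature Extraction 10.7.3.1 gave each spot an intensity, with flags as other columns; the authors also deposited a table of natural log values. The median green intensity was used in place of the planned mean, which the files lack. It was corrected with normexp (offset 50) against the local background, quantile normalised across arrays and put on a log2 scale. Control spots and outlier-flagged spots were removed, spots of a probe and array repeats of a replicate averaged, and probes kept if well above background on at least 50% of the arrays of a group. limma 3.58.1 in R 4.3.3 compared CYGB+ with NCE, with Benjamini-Hochberg adjustment at 0.05, after tests on simulated data. A gene was represented by its probe of highest mean signal. Accessions of 25422 of 27310 RefSeq probes matched the reference (GRCh38.p14), which gave names and neighbour order. Named genes were all members, CYGB and every list gene past the threshold; other named list genes were chosen after their values were seen.

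Deviations of same-numbered replicates correlated at 0.206, 0.228 and 0.299 over the probes tested, and unlike-numbered pairs ran from -0.493 to 0.286. NCE replicates 1, 2 and 3 against CYGB+ replicates 2, 3 and 1 gave 0.211, 0.286 and 0.168. These values do not settle whether the numbers pair the samples. The reported fit was unpaired, and the replicate block was an alternative. What the numbers stand for beyond the labels' biological replicate is not given in the sources used here. No pair of arrays was identical. Alternatives covered signal, background, scaling, filter, slide, array repeats, pairing, single replicates, the methods' t-test and the deposited table. Columns of that table followed the processed green signal of their arrays (r = 0.841 to 0.967 after centring each probe, slopes 0.691 to 1.038). Its filter and the reference of each probe stay unknown. Column medians were -0.161, -0.015 and 0.11 for NCE replicate 1, -0.04, 0.039 and 0.086 for NCE replicate 2, -0.049, 0.182 and -0.022 for NCE replicate 3, 0.143 and 0.001 for CYGB+ replicate 1, -0.01 and -0.048 for CYGB+ replicate 2, and -0.022 and 0.161 for CYGB+ replicate 3.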

Additional observations from a re-analysis of the deposited data

Results flagged for a closer look

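In 16 groups of arrays in which a member or CYGB probe was well above background on at least 1 array, 4 held an array far from the rest of its group. Chance marks about 1 in 20 groups of independent arrays, but these arrays are repeats within replicates and 2 of the 4 values come from the same array, so the counts cannot be set against that share. For KLK5, array repeat 1 of NCE replicate 1 read 12.42 against 11.36 for the next NCE array, and carried the bright spot described above. For KLK7, array repeat 1 of CYGB+ replicate 1 read 7.14 against 6.70 for the next. The same array read 6.30 for KLK10 against 6.12, and it is the CYGB+ array that stood apart from its group. For the KLK13 probe A_24_P416645, array repeat 2 of CYGB+ replicate 2 read 6.31 against 5.94. That array was also the one by which this group entered the check, and array repeat 1 of NCE replicate 2, in a group that did not enter, read 6.30 against 5.98 for the next.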

How the results depend on the processing

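The count of 2422 changed probes differed widely between settings. It was 1605 with the processed signal scaled to the 75th percentile, 383 with a median shift in place of quantile normalisation, 4877 with arrays as units, 764 when slide was added to that fit as a fixed term, 4 within slide 2, 1444 in the deposited table and 4367 without the 2 arrays that stood apart, the last chosen after seeing the data. The deposited table holds 15031 probes against the 22823 tested as reported, so its count of 1444 is out of fewer probes. The methods' t-test called 5504 at an unadjusted p under 0.05 and 589 after Benjamini-Hochberg adjustment. Leaving out single replicates gave 492 to 2392, with fewer samples in each fit. With the replicate block the count was 2888, with 0 member genes, and of the calls named in the text only that of PI3 was lost.

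The count of 0 member genes became 1, KLK5, with arrays as units and with bright spots left out, and ranged from 0 to 1 on leaving out single replicates. KLK6 turned to -0.24 with slide as a fixed term and -0.40 within slide 2, KLK7 to 0.012 without CYGB+ replicate 2 (range on leaving out single replicates -0.13 to 0.012), KLK8 to 0.047 at the 75th percentile scaling, KLK9 to -0.0073 without CYGB+ replicate 3 (range -0.0073 to 0.23), and KRT6A to 0.0060 within slide 2. CYGB turned to 0.081 at the 75th percentile scaling, 0.047 in the deposited table, 0.0084 without NCE replicate 2 and 0.20 without CYGB+ replicate 1 (range -0.33 to 0.20). Where no array or spot is named, the cause was not tested. Slide and group are nearly inseparable here.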

Other observations

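The scanner files also hold a red channel on every array, and the labels do not give the RNA it carries. It therefore entered no test, and its values are only listed here. In raw red signal KLK5 ran from 3029 to 25969.25 on the arrays labelled NCE, with a median of 3976.25, and from 7489 to 11261.25 on the arrays labelled CYGB+, with a median of 8668.5. Of the NCE arrays, 3 read above 7489, namely array repeats 1 and 3 of NCE replicate 1 and array repeat 1 of NCE replicate 3. CYGB in red ran from 4837.25 to 11230.5 on NCE arrays, with a median of 7276.75. On CYGB+ arrays it ran from 1177.75 to 10214.25, with a median of 8848.75. The lowest CYGB+ value came from array repeat 2 of CYGB+ replicate 1, and the next was 6718.5. SPINK5 was well above background on no array in red, and SPINK6 on 1 NCE array.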
